A study of Homo sapiens with 4 samples.

Results

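The 9 genes SPI1, CEBPA, CEBPB, CEBPD, CEBPE, IRF8, KLF4, GFI1 and RUNX1, which encode transcription factors of the myeloid and monocyte lineages, were taken by their Ensembl identifiers from a table of 20348 genes. All 9 were in the table and had at least 1 count in at least 1 library. RNA had been sequenced from K562, an established human line derived from chronic myeloid leukemia that carries the BCR-ABL1 fusion, and from THP-1, an established human line derived from acute monocytic leukemia that carries a KMT2A fusion. Each line was kept for 72 h in DMSO, the solvent, or in 100 nM periplocin, a plant cardiac glycoside that the study examined as an anti-leukemic compound. The condition names in the labels call the solvent controls blank, whereas the library names say DMSO. There were 4 libraries, 1 per condition, and a single biological replicate, so differences between conditions had no replicate check. Each line stood for 1 leukemia, and no normal blood cells were analysed here.

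Myeloid fate is set by a small group of DNA-binding proteins that act in combination. PU.1, the ETS factor encoded by SPI1, and the leucine zipper protein C/EBPα open the enhancers of myeloid genes, and RUNX1 bound to CBFβ acts upstream of both in blood stem and progenitor cells. IRF8 and KLF4 direct progenitors toward monocytes, C/EBPε and GFI1 toward granulocytes, and C/EBPβ and C/EBPδ act in inflammatory and stress-driven myelopoiesis. PU.1 and the erythroid factor GATA1 bind and oppose each other, which is one of the best known antagonisms in the choice between myeloid and erythroid fates.

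Expected counts, which are estimates of the fragments of each gene, were rounded to whole numbers and summed to between 16381149 and 20622694 per library. A count of 3, taken as the floor, was worth between 0.145 and 0.183 CPM, the counts of a gene scaled to the library total. The labels of the lines were set against marker lists. The 12 erythroid markers summed to 2835.5 CPM in K562 DMSO and 257.6 CPM in THP-1 DMSO, and the 12 monocytic markers to 94.3 and 766.0 CPM. The monocyte gene FCN1 was at 0 in all 4 libraries. The 6 lymphoid markers summed to between 6.69 and 9.54 CPM. Mitochondrially encoded genes took 5.62% of counts in the K562 control and 2.07% after periplocin, and 5.24% and 3.92% in the corresponding THP-1 libraries.

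The DNA upstream of a start site is shown for the factors that differed by at least 2-fold between periplocin and DMSO in 1 of the lines and whose stretch lay outside annotated exons. RefSeq starts on GRCh38.p14 were used, and 150 bases before each start are printed from 5′ to 3′ on the strand of the gene. The stretch of CEBPB is chr20:50190433-50190582 on the plus strand and lies before the annotated gene, as does that of the first of 3 GFI1 starts (chr1:92486926-92487075, minus strand). The stretches of KLF4 (chr9:107489770-107489919), the second GFI1 start (chr1:92486100-92486249) and RUNX1 (chr21:34888700-34888849) are on the minus strand and lie between exons of the gene. Capitals mark matches to the motifs searched.
CEBPB: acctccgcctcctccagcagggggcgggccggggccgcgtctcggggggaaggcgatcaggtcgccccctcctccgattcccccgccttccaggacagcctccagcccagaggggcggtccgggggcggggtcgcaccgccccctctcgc
KLF4: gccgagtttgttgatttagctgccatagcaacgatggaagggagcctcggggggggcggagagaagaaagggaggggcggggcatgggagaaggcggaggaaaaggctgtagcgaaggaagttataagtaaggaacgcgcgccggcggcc
GFI1, first start: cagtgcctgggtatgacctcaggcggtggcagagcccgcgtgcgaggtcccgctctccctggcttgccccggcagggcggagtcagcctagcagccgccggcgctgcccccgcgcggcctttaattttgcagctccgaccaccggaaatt
GFI1, second start: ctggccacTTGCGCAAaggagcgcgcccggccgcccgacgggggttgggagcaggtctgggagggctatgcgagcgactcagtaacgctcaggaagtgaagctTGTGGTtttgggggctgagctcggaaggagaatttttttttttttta
RUNX1: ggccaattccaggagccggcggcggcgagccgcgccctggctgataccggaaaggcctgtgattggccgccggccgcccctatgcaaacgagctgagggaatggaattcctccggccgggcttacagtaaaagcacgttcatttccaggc
The windows of 300 bases around 11 starts of 7 members (250 bases before to 50 after the start) were searched on both strands. The letters searched for the RUNX factors were TGTGGT. Those for PU.1 were GAGGAAGT, those for C/EBP factors were TTGCNNAA and those for IRF factors were GAAANNGAA. For erythroid factors of the GATA family the letters were AGATAA. Counted from its second start, GFI1 held 1 C/EBP match with its first base at -142 and 1 RUNX match with its first base at -47. The windows of its other starts held none of the letters. CEBPE held 1 IRF match and IRF8 held 1 RUNX match. Of 35116 promoters of the same length, 2.59% held the PU.1 letters, 10.5% the C/EBP letters, 13.1% the RUNX letters, 10.3% the GATA letters and 8.11% the IRF letters. The windows of CEBPB, KLF4, RUNX1 and CEBPA held none of these letters, which describes these windows only. SPI1 and CEBPD were not searched.

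The lines differed widely in these factors before any drug was added. THP-1 DMSO was set against K562 DMSO with library sizes scaled by TMM over the pair. A gene was called higher or lower when its mean over the pair was at least 1 CPM and its absolute log2 fold change was at least 1, which is a 2-fold difference. Of the 9 members, 6 were higher in THP-1, 1 was lower, 1 was not called and 1 stayed under 1 CPM. Over all 12845 genes tested in this pair, 22.7% were higher, 21.1% lower and 43.8% either, and the median log2 fold change was 0.02. Because the lines are different cells and each was sequenced once, the line, the culture and the library cannot be told apart.

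**Figure D1:**
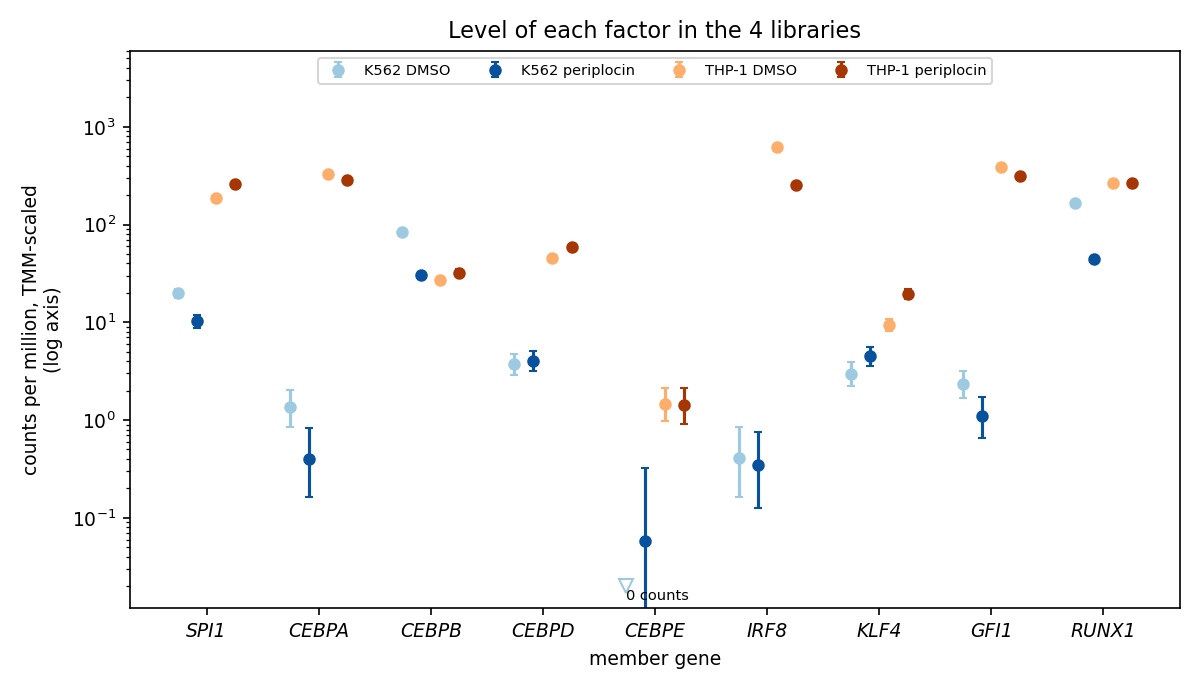
Level of each of the 9 factors in the 4 libraries, as TMM-scaled CPM on a log axis, with exact 95% Poisson intervals that cover counting error only; the open triangle marks 0 counts of CEBPE in K562 DMSO. IRF8, CEBPA and GFI1 sit far higher in both THP-1 libraries than in both K562 libraries, while CEBPB is highest in K562 DMSO at 83.7.

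SPI1 (chromosome 11, 47354860 to 47378576, minus strand of GRCh38) had 339 counts in the K562 control and 179 with periplocin, against 3702 in the THP-1 control and 4377 with periplocin. Both THP-1 libraries lay above both K562 libraries. In DMSO the gene was 9.42-fold higher in THP-1, with a 95% counting interval of 8.44 to 10.6.

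IRF8 (chromosome 16, 85898803 to 85922609, plus strand) was nearly undetected in K562, with 7 counts in DMSO and 6 in periplocin, and stood at 12161 and 4323 counts in THP-1. Its difference between the DMSO libraries, 1407.5-fold (728.1 to 3733.2), was the largest among the members. Of all genes tested, 99.5% had a lower THP-1 to K562 ratio.

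Among the C/EBP genes, CEBPA (chromosome 19, 33299934 to 33302564, minus strand, a single exon) had 23 counts in K562 DMSO and 7 in K562 periplocin, against 6492 and 4798 in THP-1. It was 239.0-fold higher (162.3 to 384.9) in THP-1 DMSO than in K562 DMSO. CEBPA shares 659 and 482 exonic bases with the antisense genes AC008738.3 and AC008738.5, which the table does not list. Whether the counting used strand is not stated in the sources used here, so reads from either side of such an overlap cannot be told apart. CEBPD, an acute-phase and stress-responsive factor on chromosome 8 (47736909 to 47739086, minus strand, a single exon), had 64 and 70 counts in K562 DMSO and periplocin, and 898 and 989 in THP-1. In THP-1 DMSO it was 12-fold higher (9.4 to 15.9).

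CEBPB (chromosome 20, 50190734 to 50192689, plus strand, a single exon) went the other way. K562 had 1429 counts without and 525 with periplocin, and THP-1 had 530 without and 547 with it. K562 DMSO stood apart from the rest, and CEBPB was 3.12-fold lower in THP-1 DMSO than there. CEBPB shares 231 exonic bases with CEBPB-AS1, an antisense gene that the table does not list. CEBPE (chromosome 14, 23117304 to 23119616, minus strand), a factor of late granulocyte maturation, had 0 and 1 counts in K562 and 29 and 24 in THP-1. With the floor of 3 counts in K562 DMSO it was at least 8.35-fold higher in THP-1 DMSO, although its mean over the pair, 0.703 CPM, lay below the limit for a call.

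GFI1 (chromosome 1, 92474762 to 92486876, minus strand), a zinc finger repressor that favors granulocytes over monocytes, had 40 and 19 counts in K562 DMSO and periplocin, and 7610 and 5360 in THP-1. It was 162.5-fold higher (120.6 to 230.2) in THP-1 DMSO. KLF4 (chromosome 9, 107484852 to 107490482, minus strand), a zinc finger factor of monocyte differentiation, was low everywhere, with 51 and 78 counts in K562 and 187 and 331 in THP-1. It was 3.15-fold higher (2.31 to 4.41) in THP-1 DMSO.

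RUNX1 (chromosome 21, 34787801 to 36004667, minus strand), the longest of these genes at 1216867 bp, was the factor most alike in the untreated lines. K562 had 2855 counts without and 770 with the drug, and THP-1 had 5217 without and 4468 with it. The DMSO libraries differed 1.58-fold (1.51 to 1.65), which was below the limit for a call. K562 periplocin was the low library.

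Levels were compared between genes only as CPM per kilobase of exon. In K562 DMSO the order began with CEBPB at 44.6 and RUNX1 at 11.2, after which came SPI1 and then CEBPD at 1.79. The remaining members lay below 1 CPM per kilobase. In THP-1 DMSO the leading members were CEBPA at 119.6, IRF8 at 114.2, GFI1 at 111.8 and SPI1 at 86.8. With the longest coding transcript in place of all exons, IRF8 led at 194.6 and CEBPA, at 119.6, came after GFI1 and SPI1, so the order of these 4 genes in THP-1 DMSO depended on the length used. In THP-1 periplocin SPI1 was first under both lengths, at 119.4 by all exons.

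In K562, RUNX1 and CEBPB fell in periplocin, SPI1 lay just short of 2-fold lower, and KLF4 and CEBPD were not called. Of the 9 members, 6 had a mean of at least 1 CPM over the K562 pair, and 3 of those were called lower (RUNX1, CEBPB and GFI1) while 0 were called higher. Of all 11862 genes tested, 11.5% were lower, 8.83% higher and 20.3% either, with a median log2 fold change of -0.01. With so few members the count of 3 is a description only. CEBPA, CEBPE and IRF8 were below 1 CPM on average. In bulk RNA, fewer cells of a type and less RNA per cell cannot be told apart.

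RUNX1 fell from 174.3 to 46.5 CPM, a log2 fold change of -1.92 (95% counting interval -2.03 to -1.80). Only 3.11% of the genes tested had a lower value. CEBPB fell from 87.2 to 31.7 CPM, a log2 fold change of -1.47 (-1.62 to -1.33), and 5.87% of genes had a lower value. These were the members with the highest counts in K562 DMSO, and both intervals stayed beyond 2-fold.

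GFI1 fell from 2.44 to 1.15 CPM, and its log2 fold change of -1.08 (-1.97 to -0.28) rested on 40 and 19 counts. SPI1 was at 20.7 CPM in DMSO and 10.8 CPM in periplocin, a log2 fold change of -0.95 (-1.22 to -0.68). GFI1 thus lay just inside and SPI1 just outside the 2-fold limit, and the interval of each spanned it. CEBPA, at 1.4 CPM in DMSO and 0.423 CPM in periplocin, had a log2 fold change of -1.67 (-3.21 to -0.48) on 23 and 7 counts.

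The other members did not differ by 2-fold. KLF4 was at 3.11 CPM in DMSO and 4.71 CPM in periplocin, a log2 fold change of 0.58 (0.06 to 1.13). CEBPD was at 3.91 and 4.23 CPM, and its interval of -0.41 to 0.61 included 0. The interval of IRF8, -2.10 to 1.55, was the widest and also included 0. No fold is given for CEBPE, which was at or under the floor in both libraries.

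In the same K562 pair, 12 of 12 erythroid markers were called higher, and their sum went from 2835.5 to 13632.8 CPM with none at 3 counts or fewer. Of the 12 monocytic markers 6 passed the CPM limit, of which 3 were higher and 1 lower, with sums of 94.3 and 130.2 CPM. The part of these markers, and of the lower mitochondrial share, in the values of the members was not tested. The intervals above cover counting error only. When a dispersion of 0.16 was assumed, which is a spread of 40.0% between replicates, the interval of RUNX1 (-3.52 to -0.31) still excluded 0 and those of CEBPB (-3.08 to 0.14), SPI1, GFI1 and CEBPA did not.

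**Figure D2:**
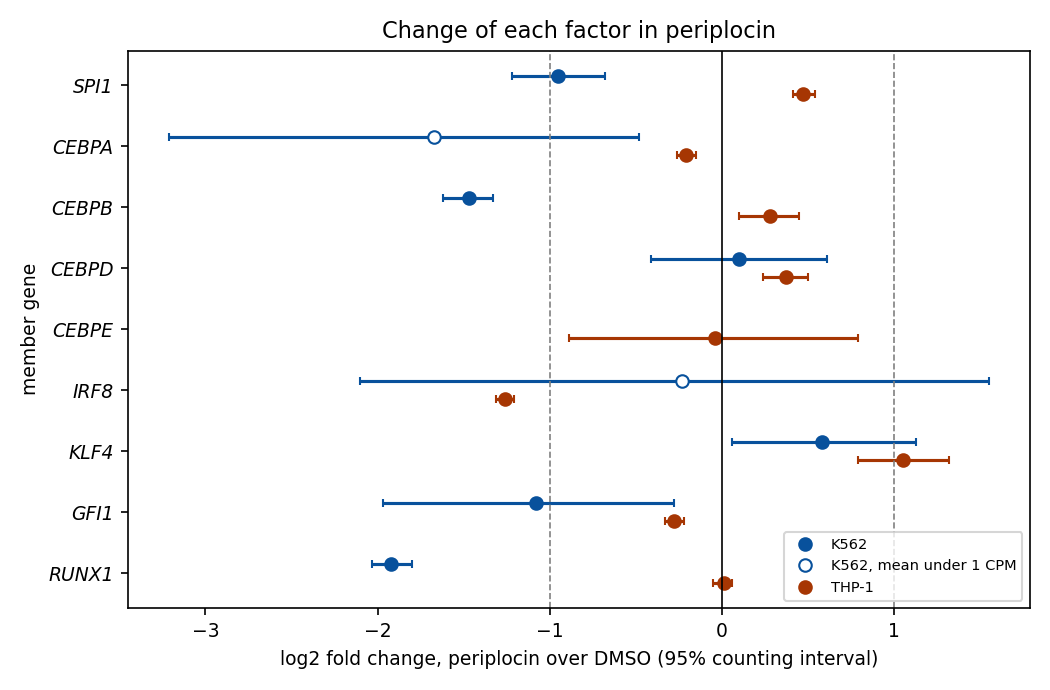
Log2 fold change of each factor in periplocin over DMSO in K562 (blue) and THP-1 (brown), with 95% counting intervals; open circles mark genes with a mean under 1 CPM, dashed lines mark 2-fold, and CEBPE in K562 is left out because both libraries were at the floor. RUNX1 sits at -1.92 in K562 and at 0.01 in THP-1, and IRF8 sits at -1.26 in THP-1.

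In THP-1, most of the factors stayed within 2-fold of their DMSO level. All 9 members passed the CPM limit, 1 was called higher (KLF4) and 1 lower (IRF8). Of all 12341 genes tested, 8.01% were higher, 10.4% lower and 18.4% either, with a median log2 fold change of -0.02. The share of members called, 2 of 9, was thus close to the share of all genes.

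IRF8, a monocyte and dendritic cell factor with the highest count among the members in THP-1 DMSO, fell from 589.7 to 243.9 CPM. Its log2 fold change was -1.26 (-1.31 to -1.21), and 6.63% of the genes tested had a lower value. KLF4 rose from 9.07 to 18.7 CPM with a log2 fold change of 1.05 (0.79 to 1.32), just inside the 2-fold limit. The monocyte-promoting factors IRF8 and KLF4 therefore went in opposite directions in the same pair of libraries.

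SPI1 was at 179.5 CPM in DMSO and 247.0 CPM in periplocin, a log2 fold change of 0.47 (0.41 to 0.54). CEBPD had 43.5 and 55.8 CPM, a log2 fold change of 0.37 (0.24 to 0.50), and CEBPB had 25.7 and 30.9 CPM, a log2 fold change of 0.28 (0.10 to 0.45). These 3 intervals lay above 0 and well under 2-fold. CEBPA, at 314.8 and 270.7 CPM, and GFI1, at 369.0 and 302.5 CPM, had log2 fold changes of -0.21 (-0.26 to -0.15) and -0.28 (-0.33 to -0.22).

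RUNX1 was at 253.0 and 252.1 CPM in THP-1, and its log2 fold change of 0.01 had an interval of -0.05 to 0.06. CEBPE, on 29 and 24 counts, had an interval of -0.89 to 0.79 that included 0. As folds of the DMSO level, this interval of CEBPE ran from 0.541 to 1.73, so changes within it were compatible with the counts. In this pair the monocytic markers summed to 766.0 CPM in DMSO and 1172.4 CPM in periplocin, with 6 of the 10 that passed the limit higher and 1 lower, and the erythroid markers to 257.6 and 248.9 CPM. The part of the monocytic markers in the values of the members was not tested. With an assumed dispersion of 0.16 the intervals of IRF8 (-2.86 to 0.34) and KLF4 (-0.57 to 2.67) both included 0.

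The fold changes of the lines were then set beside each other, as the THP-1 log2 fold change minus the K562 one. The difference could be computed for 8 members, and its counting interval excluded 0 for RUNX1 at 1.92 (1.79 to 2.05), CEBPB at 1.75 (1.52 to 1.97), CEBPA at 1.47 (0.28 to 2.65), SPI1 at 1.42 (1.15 to 1.69) and GFI1 at 0.81 (0.02 to 1.59). All 5 were positive, meaning that the value in THP-1 lay above that in K562. The intervals of CEBPD, KLF4 and IRF8 included 0, and that of IRF8, -2.55 to 0.49, was set by its few counts in K562. None of the 9 members was called in both lines. Of all genes tested, 20.3% were called in K562 and 18.4% in THP-1. The shares of all genes called in both lines, or with such differences, were not computed. These counts are therefore no result about the members. With 1 library per line and condition, a difference between lines was not tested against replicate spread.

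A shared effect of periplocin was tested with edgeR's quasi-likelihood fit to the 4 libraries, with line and treatment as terms and 1 residual degree of freedom. Of 13584 genes, 0 (0.0%) passed an adjusted p of 0.05, 1535 had an unadjusted p under 0.05, and DESeq2 called 125. In this fit IRF8 had the smallest adjusted p among the members, 0.412, with a log2 fold change of -1.01. The adjusted p of RUNX1 was 0.519 with a log2 fold change of -0.94, and that of SPI1, whose values lay on opposite sides of 0 in the lines, was 0.864 with -0.21. IRF8 had only 7 and 6 counts in K562. Its value in this fit therefore rests largely on the single THP-1 pair and says little about a shared change. The common biological coefficient of variation, 0.3173, includes how far the responses of the lines differ. The DESeq2 fit gave IRF8 an adjusted p of 0.458.

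The sum of 5 C/EBP genes differed in both its size and its makeup between the lines. DDIT3, which encodes the C/EBP-related protein CHOP and had 1499 and 821 counts in K562, was not in this sum. With CEBPG, a family member that lacks an activation domain, the 5 genes CEBPA, CEBPB, CEBPD, CEBPE and CEBPG summed to 102.2 CPM per kilobase in K562 DMSO and 41.9 in K562 periplocin. CEBPG made up 54.1% and 56.2% of this, and CEBPB 43.6% and 38.7%. Both genes were called lower in periplocin, so that this sum shrank with little change in makeup. In THP-1 the sum was 185.7 CPM per kilobase in DMSO and 187.5 in periplocin, while the share of CEBPA went from 64.4% to 54.9%, that of CEBPG from 17.2% to 22.6% and that of CEBPD from 10.8% to 13.7%.

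**Figure D3:**
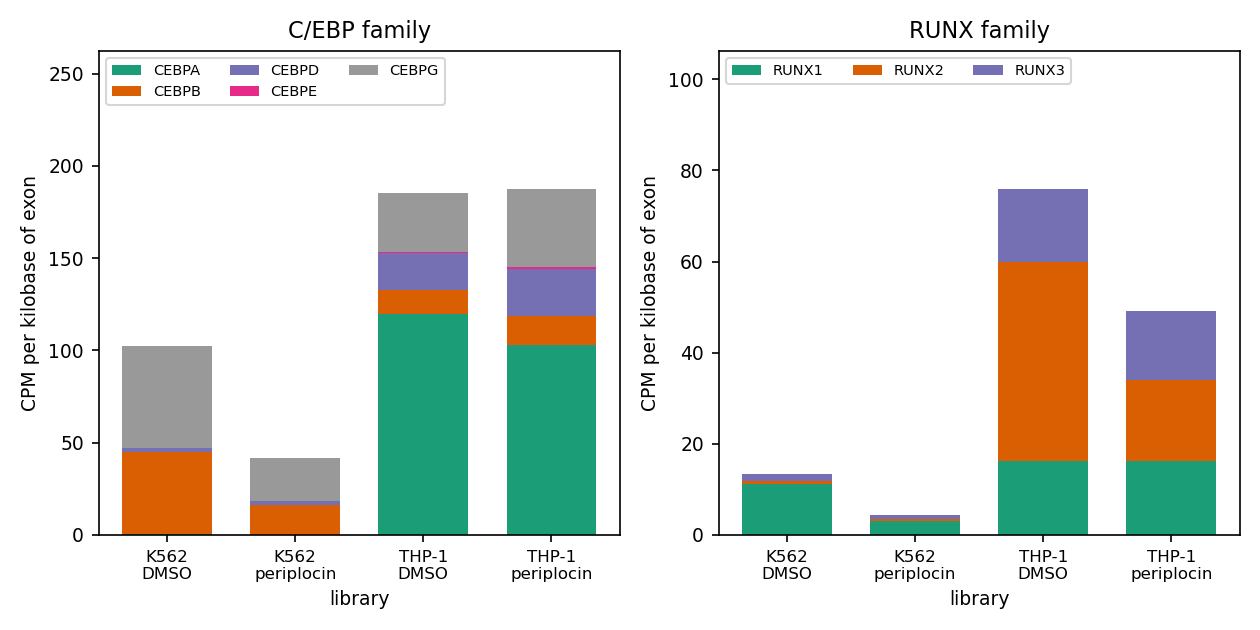
Level of the CEBP genes (left) and the RUNX family (right) in the 4 libraries, as CPM per kilobase of exon, stacked by gene. DDIT3 is not included. CEBPB and CEBPG make up nearly all of the sum of the CEBP genes in K562, and CEBPA is the largest share in THP-1. RUNX2 is the segment that shrinks most in THP-1 periplocin.

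Of the 5 relatives and regulators of the C/EBP proteins that were listed, 2 fell in K562 and 0 rose, with a median log2 fold change of -0.89, beside 11.5% of all genes lower and 8.83% higher. In THP-1 2 rose and 0 fell, with a median of 0.93, beside 8.01% of all genes higher and 10.4% lower. CEBPG fell in K562 from 3995 to 1718 counts (log2 fold change -1.24), and TRIB3, a pseudokinase induced by stress, fell from 6499 to 1465 counts (-2.18). DDIT3, which encodes the stress-induced C/EBP partner CHOP, was at 1499 and 821 counts (-0.89). In THP-1 the risers were TRIB1, which encodes a pseudokinase that directs C/EBPα to degradation, from 170 to 921 counts (2.66), and its relative TRIB2, from 14 to 42 counts (1.78). In the same libraries DDIT3 was at 242 and 394 counts (0.93) and CEBPG at 2911 and 3305 counts (0.41).

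In the RUNX and CBF group, 1 of 5 genes passing the limit fell in each line and 0 rose, with medians of -0.84 in K562 and -0.28 in THP-1. With 11.5% of all genes lower in K562 and 10.4% in THP-1, 1 gene of 5 is near the background and is no result about the group. CBFB, which encodes the partner that stabilizes RUNX proteins on DNA, fell in K562 from 3288 to 1402 counts (log2 fold change -1.26). RUNX1 and CBFB were both lower in K562 periplocin. Per kilobase of all exons, the ratio of RUNX1 to CBFB went from 0.23 (0.219 to 0.242) to 0.146 (0.133 to 0.159). The level of this ratio depends on the length used. In THP-1 CBFB was at 3270 and 2292 counts (-0.28).

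The RUNX gene that fell in THP-1 was RUNX2, from 7363 to 2605 counts (log2 fold change -1.27), while the log2 fold change of RUNX1 there was 0.01. RUNX2 made up 57.4% of the RUNX family per kilobase in the THP-1 control and 36.5% after periplocin, and RUNX1 21.4% and 33.0%. In K562 the share of RUNX1 went from 83.2% to 68.5% of a sum that went from 13.4 to 4.36 CPM per kilobase. These shares use the length of all exons and depend on it. In the THP-1 control RUNX1 was at 16.2 CPM per kilobase by all exons and 34.8 by the longest coding transcript. The shares were not recomputed with that length. RUNX3 was at 120 and 68 counts in K562 (-0.84) and at 1506 and 1201 in THP-1 (-0.10). CBFA2T3, which encodes a corepressor, was at 3080 and 1628 counts in K562 (-0.95) and at 1049 and 462 in THP-1 (-0.95), just outside the limit in both. CBFA2T2, a related corepressor gene, had log2 fold changes of 0.36 and -0.12, and RUNX1T1 had 3 to 5 counts in all 4 libraries.

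The GFI1 pair of paralogs was split between the lines. GFI1B, the erythroid and megakaryocytic paralog, had 1353 and 1557 counts in K562 and 2 and 0 in THP-1, so that GFI1 made up 5.18% of the pair per kilobase in K562 DMSO and 2.21% in K562 periplocin. The ratio of GFI1 to GFI1B in K562 went from 0.0547 (0.0389 to 0.0748) to 0.0226 (0.0135 to 0.0354). None of the 6 listed genes for GFI1B and the corepressors was called in either line, and 5 of them passed the limit in THP-1. Over all genes tested, 20.3% were called in K562 and 18.4% in THP-1. With so few genes this count is no result about the group. KDM1A, the histone demethylase recruited by GFI1, had log2 fold changes of 0.47 in K562 and -0.24 in THP-1. HDAC1 was at 0.58 and 0.56, HDAC2 at 0.09 and 0.12, RCOR1 at -0.12 and 0.09 and the histone methyltransferase gene EHMT2 at 0.52 and -0.73.

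SPI1 was set against GATA1, whose proteins oppose each other, after the counts of both had been seen. The ratios below restate the counts of the genes in them and are no further support. GATA1 had 2715 and 4959 counts in K562 DMSO and periplocin, a log2 fold change of 0.84 that was not called, and 3 and 2 counts in THP-1. Per kilobase, the ratio of SPI1 to GATA1 in K562 went from 0.0905 (0.0806 to 0.101) to 0.0262 (0.0224 to 0.0304). Neither gene alone passed the 2-fold limit in K562. In THP-1 the ratio of IRF8 to SPI1 per kilobase went from 1.32 (1.27 to 1.37) to 0.396 (0.379 to 0.413), and that of CEBPA to CEBPB from 9.11 (8.33 to 9.97) to 6.52 (5.97 to 7.14).

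The other members of each factor's DNA-binding family were counted next, beside the shares of all genes given above. Among ETS factors, the family of PU.1, 9 of the 14 genes tested in K562 fell and 0 rose, with a median log2 fold change of -1.12. ETV4 fell from 1542 to 253 counts (-2.63), ETV5 from 901 to 215 counts (-2.09) and ELK3 from 286 to 72 counts (-2.01). All 3 encode factors linked to signaling through the MAP kinase ERK. In THP-1, 2 of 16 ETS factors rose and 1 fell, with a median of 0.21. ETS1, a factor known from lymphoid and endothelial cells, rose there from 1274 to 4041 counts (1.90), and ETV5 rose from 202 to 435 counts (1.33).

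Among the other IRF factors, 0 of 5 genes tested in K562 were called and the median was 0.29. In THP-1, where IRF8 itself fell, 4 of 7 rose and 0 fell, with a median of 1.35. IRF7, which induces interferon genes, rose from 164 to 398 counts (1.51). IRF9, the DNA-binding part of the interferon-responsive complex ISGF3, rose from 374 to 828 counts (1.38), and IRF2 rose from 566 to 1243 counts (1.36).

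Among the other KLF factors, 2 of 10 genes tested in K562 rose and 0 fell, with a median of 0.29, and in THP-1 4 of 13 rose and 1 fell, with a median of 0.21. KLF1, the erythroid factor, rose in K562 from 1428 to 4883 counts (1.75), and KLF13 rose from 1208 to 2680 counts (1.12). In THP-1, KLF10 rose from 1186 to 2311 counts (1.19), and KLF2, which restrains monocyte activation, fell from 482 to 181 counts (-1.18).

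The other factors of monocytes and macrophages included 6 of 20 higher and 4 lower in K562, and their median was 0.07. In THP-1, 13 of 28 were higher and 1 lower, with a median of 0.91. Of all genes tested, 8.83% were higher and 11.5% lower in K562, and 8.01% and 10.4% in THP-1. PPARG, a nuclear receptor of lipid-handling macrophages, rose in THP-1 from 102 to 390 counts (2.16). BCL6, a transcriptional repressor, was higher with periplocin in each line, at 292 and 4440 counts in K562 (3.90) and 82 and 407 counts in THP-1 (2.53). ID2, an inhibitor of basic helix-loop-helix factors, rose in K562 from 102 to 1327 counts (3.67), while the immediate early gene EGR1 fell there from 2182 to 467 counts (-2.25).

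Genes that carry out monocyte and macrophage functions, many of which have PU.1 or C/EBP sites, showed 4 of 14 higher and 2 lower in K562, with a median of 0.33. In THP-1, 12 of 30 were higher and 1 lower, with a median of 0.81. The shares of all genes were again 8.83% higher and 11.5% lower in K562, and 8.01% and 10.4% in THP-1. CD14, the lipopolysaccharide co-receptor, rose in THP-1 from 8 to 382 counts (5.72), TLR4 from 781 to 2314 counts (1.80), and CTSS, a lysosomal protease, from 4421 to 11805 counts (1.65). In K562, CTSS rose from 85 to 342 counts (1.98). CD14 was also called higher there, at 1 and 69 counts, with DMSO under the floor. The Fc receptor gene FCGR2A fell in K562 from 1033 to 282 counts (-1.90).

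Among granulocyte receptor and granule genes, more were called lower than higher. In THP-1, 5 of 9 were lower and 1 higher, with a median of -1.28. In K562, where only 4 passed the limit, 3 were lower and 0 higher, with a median of -1.91. Of all genes tested, 10.4% were lower and 8.01% higher in THP-1, and 11.5% and 8.83% in K562. In THP-1, 3 were not called. AZU1 was at 21890 and 15193 counts (-0.30), ELANE at 9037 and 6952 (-0.15) and IL6R at 13545 and 14208 (0.30). CTSG, which encodes cathepsin G, fell in THP-1 from 6226 to 1458 counts (-1.86), CSF3R, which encodes the G-CSF receptor, from 2315 to 758 counts (-1.38), and PRTN3, which encodes proteinase 3, from 8669 to 3037 counts (-1.28). G0S2, a lipolysis inhibitor on the same list, fell in K562 from 479 to 24 counts (-4.32) and rose in THP-1 from 48 to 237 counts (2.52).

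**Figure D4:**
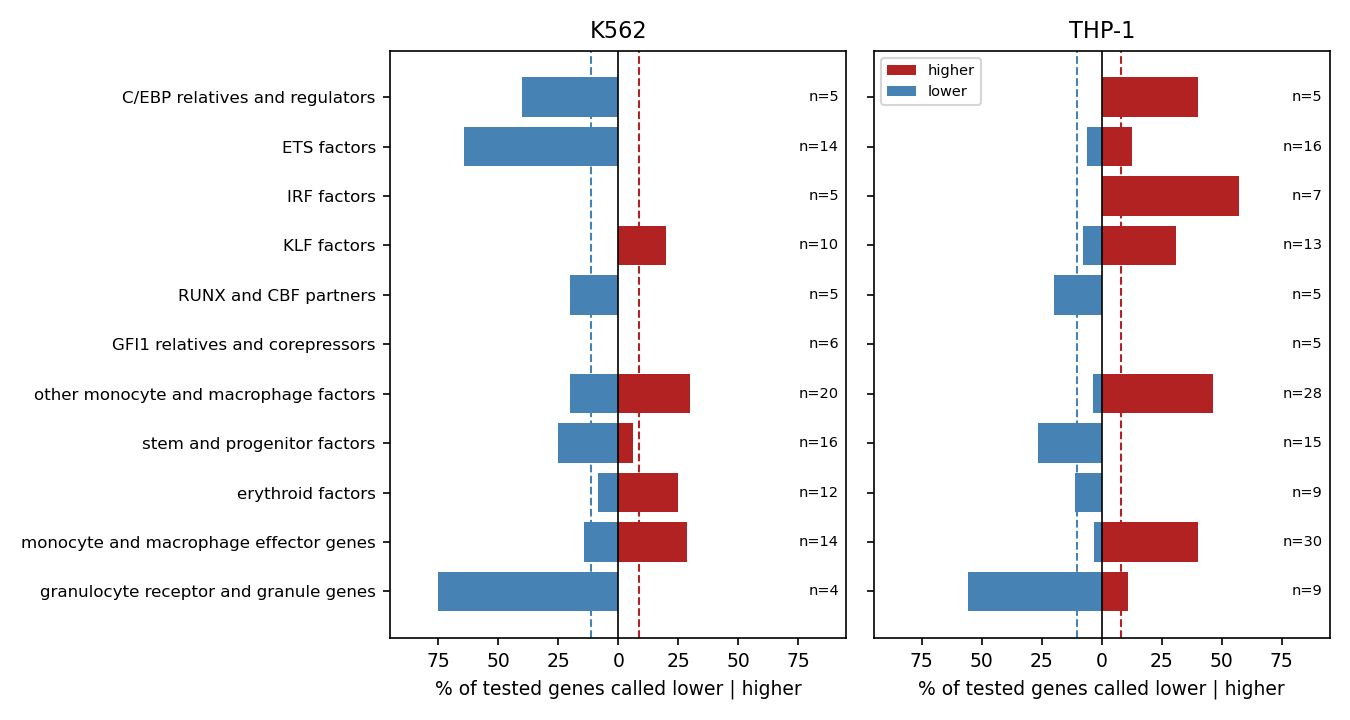
Percent of the tested genes of each list called lower (left of 0, blue) or higher (right of 0, red) in periplocin over DMSO in K562 and THP-1, with the number tested at the right of each row; dashed lines give the same percent over all genes. In K562, 9 of 14 ETS factors were lower, and in THP-1, 4 of 7 other IRF factors and 13 of 28 other monocyte and macrophage factors were higher.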

How the data were processed

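Poly-A RNA of 4 libraries (K562 and THP-1, DMSO or periplocin) was analysed. The authors deposited 1 table of expected counts per gene, neither normalized nor pooled, in which 87.4% to 88.3% of values are whole numbers. The submitters' processing notes name HISAT2, StringTie 1.3.1 and hg38, with no roles. The dose and the time come from the study's methods. Symbols were found for 20310 of 20348 genes, and 20118 identifiers matched GENCODE 29 on GRCh38, the source of positions and exon lengths. Promoters are from RefSeq.

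Counts were rounded. edgeR 4.0.16 (R 4.3.3) gave TMM factors per pair and log2 fold changes with a prior count of 0.5. Intervals for fold changes are exact Clopper-Pearson intervals of the conditional binomial at 95%, those for differences between lines use a normal approximation, and all cover counting error only, since PCR reads without molecular identifiers are not independent molecules. Calls required a mean of 1 CPM and an absolute log2 fold change of 1, and no p-value was computed for single libraries. The fit to 4 libraries kept genes with 10 counts in at least 2 libraries and was tested on simulated data. The simulated counts held Poisson error only, with the same changes in both lines. They therefore do not show how the fit performs with spread between replicates or with lines that differ. DESeq2 1.42.0 with the same terms was an alternative. The others were DESeq2 size factors and total counts as scalings, other filters, prior counts, thresholds, assumed dispersions and gene lengths.

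The members and the 11 gene lists were chosen with earlier results of these data known, and the gene ratios after the members' counts were seen. Named genes are all members, every gene of lists of up to 6, and up to 5 called genes per longer list and line with a mean of at least 5 CPM, by size of change. Not every gene that this rule names is reported here. GATA1 falls outside this rule within K562 and was chosen after its values were seen. Python 3.11.15, scipy 1.17.1 and matplotlib 3.10.9 were used.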

Additional observations from a re-analysis of the deposited data

Results flagged for a closer look

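The value of 2 members lay below 0 in K562 and above 0 in THP-1, with counting intervals away from 0 in both lines. The THP-1 log2 fold change minus the K562 one was 1.42 for SPI1 (-0.95 in K562, 0.47 in THP-1) and 1.75 for CEBPB (-1.47 and 0.28). With 1 library per line and condition, this difference between the lines was not tested against the spread between replicates. The share of all genes with such opposite values was not computed.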

How the results depend on the processing

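Under DESeq2 size factors, total counts, TMM factors over all 4 libraries and a prior count of 2, the 68 recomputed log2 fold changes of members stayed on the same side of the 2-fold limit, each within a range of at most 0.17. Their signs were kept except for RUNX1 in THP-1, which was 0.01 as reported and lay at or just below 0 with total counts. The members called in K562 were 5 with no filter, 0 at an absolute log2 fold change of 2 and 1 with an assumed dispersion of 0.16, against 3. In THP-1 they were 0 at an absolute log2 fold change of 2 and 0 at that dispersion, against 2. Over all genes, the calls in K562 (2413) became 5135, 549 and 882 under these alternatives in that order, and the calls in THP-1 (2273) became 4667, 495 and 802, and 1475 at a mean of 5 CPM. The 0 genes of the fit to both lines became 1 with no filter, 1 with total counts and 125 with DESeq2, of which 73 were higher and 52 lower. With total counts, the log2 difference of RUNX1 between the DMSO libraries was 0.54 instead of 0.66. With the length of the longest coding transcript, 6 members changed rank in the THP-1 control and 4 in its periplocin library. Apart from the settings with fewer or more genes, the cause of these changes was not tested. No library could be left out of a pair. The fit to both lines compares periplocin with DMSO within each line, and no further block could be fitted because the labels give no replicate numbers and each condition has 1 library. Depth limits CEBPA, CEBPE and IRF8 in K562, which had 23 counts or fewer.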

Other observations

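Factors of stem and progenitor cells were counted in the same way. Of 16 tested in K562, 4 fell and 1 rose, with a median log2 fold change of -0.51, and of 15 tested in THP-1, 4 fell and 0 rose, with a median of -0.51. Over all genes tested, 11.5% were lower and 8.83% higher in K562, and 10.4% lower and 8.01% higher in THP-1. MYB, a factor that keeps progenitors proliferating, fell in K562 from 8071 to 2592 counts (-1.66), and HHEX fell from 2193 to 815 counts (-1.45). In THP-1, MYC fell from 5889 to 1024 counts (-2.29), BCL11A from 255 to 49 counts (-2.14), GATA2 from 306 to 98 counts (-1.41) and WT1 from 320 to 109 counts (-1.32). MYB in THP-1, at 12669 and 5441 counts (-0.99), and MYC in K562, at 5322 and 2889 (-0.91), lay just outside the limit.

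Among erythroid factors, 3 of 12 rose and 1 fell in K562, with a median of 0.57, and 0 rose and 1 fell of 9 in THP-1, with a median of 0.21, beside the same shares of all genes. LDB1, which bridges enhancers and promoters in erythroid cells, rose in K562 from 2589 to 7268 counts (1.46), and TAL1, its partner in the same complex, rose from 3350 to 7895 counts (1.21). STAT5A, which acts below the erythropoietin receptor and BCR-ABL1, fell in K562 from 12851 to 3800 counts (-1.78). STAT5B, on the same list, was at 5491 and 6861 counts there (0.29) and was not called. Of the monocytic markers that passed the limit in K562, 3 were higher and 1 was lower. The lower one was CD33, from 362 to 127 counts (-1.53), while CYBB rose from 90 to 249 counts (1.44).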
